A study of Mus musculus with 28 samples.

Results

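Vat1 (ENSMUSG00000034993) was followed as 1 gene of the 41549 counted in nuclei sorted from mouse motor cortex. It was chosen by its measured counts, as one of the genes that stood highest in Cas9-positive against Cas9-negative nuclei after the g4 vector, so that contrast is given here as a description, with no test. The gene was found by its name in both deposited count tables.

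VAT1, vesicle amine transport protein 1, was first described as a membrane protein of synaptic vesicles in the electric ray. It belongs by sequence to the quinone oxidoreductase-like enzymes, and in mammalian cells it has been linked to the control of mitofusin-driven fusion of mitochondria. miR-124 is a microRNA abundant in neurons. MicroRNAs lower the output of messenger RNAs, mostly by pairing of their seed, a short stretch near the 5′ end, with sites in the 3′ untranslated region (3′ UTR).

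Each of 7 mice carried 2 vectors, AAV-Cas9-miR-124-empty in the left motor cortex and, in the right one, AAV-Cas9-miR-124-g4, called empty and g4 below. Nuclei of fixed tissue were sorted by an antibody to the HA tag of Cas9 into HA-positive (Cas9-positive) and HA-negative nuclei, which gave 4 groups of 7 libraries, 1 for each vector and fraction. All 4 groups therefore came from injected tissue of the same animals, and the HA-negative nuclei are no uninjected control. Vector and hemisphere coincided in every animal and cannot be told apart. The sources used here give no age, sex, strain, time after injection or promoter of the vectors, and they do not say what g4 stands for. Animals are named by the number in the sample titles, 17 to 23.

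The libraries were shallow, with 248612 to 902944 counts and 8687 to 13668 genes detected in each. Vat1 had between 3 and 68 counts in a library, and counting error alone gives a count of 3 an exact Poisson 95% interval of 0.619 to 8.77 and a count of 68 one of 52.8 to 86.2. The 10 excitatory neuron markers of cortex were present in every group, at summed levels of 907 to 2599 CPM, counts scaled to a common library size. The g4 HA-positive library of animal 19 stood apart, since it held both Xist (655 CPM) and Y-linked transcripts (48.7 CPM) and oligodendrocyte markers at a sum of 1467 CPM, against at most 218 CPM in the other g4 HA-positive libraries. In all other libraries, animals 17 to 20 held 0 CPM of Xist and 93.5 to 206 CPM of Y-linked transcripts. Animals 21 to 23 held 499 to 1272 CPM of Xist and at most 3.98 CPM of Y-linked transcripts. Where the Xist of that g4 library of animal 19 came from was not tested. Results for Vat1 that rest on that library are given with and without it. In 4 HA-positive libraries, those of animals 17, 21 and 22 with empty and of animal 18 with g4, fewer than 10000 genes were detected.

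In the GENCODE annotation of GRCm38, Vat1 lies on chromosome 11 from 101458745 to 101466230, on the minus strand. It has 6 exons with 2766 exonic bases, and its 3′ UTR of 1448 bases lies wholly in exon 6. The 3′ UTR held 2 matches to the miR-124 seed, searched on the strand of the transcript as GTGCCTT (7mer-m8), TGCCTTA (7mer-A1) and GTGCCTTA (8mer, which contains both others and was counted once). The 8mer occupies bases 709 to 716 of the 3′ UTR (chr11:101459477-101459484) and the 7mer-m8 bases 801 to 807 (chr11:101459386-101459392), with 84 bases between them and 0 further matches of the 7mer-A1 kind. Both are shown because the vectors are named for miR-124, each 5′ to 3′ on the transcript strand with the seed match in capitals; the windows are chr11:101459466-101459495 and chr11:101459375-101459403.
Vat1 site 1 (8mer): gatttgtctcaGTGCCTTAgcatctgaaaa
Vat1 site 2 (7mer-m8): ccttctccccaGTGCCTTcctcgtcctgg

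**Figure D1:**
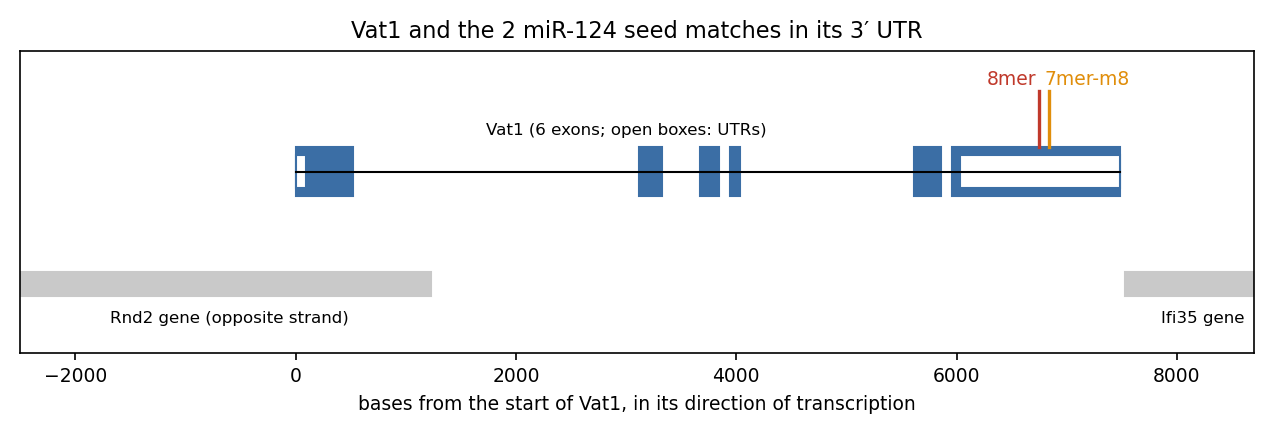
Exons of Vat1 (filled boxes, with UTRs drawn open inside them), the 2 seed matches and the neighbouring genes, along bases from the start of Vat1 in its direction of transcription. Both matches lie in the last exon, and Rnd2 runs into the first exon from the other strand.

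Of 21037 protein-coding genes with an annotated 3′ UTR, 4134 (19.7%) held at least 1 match of any of these kinds in their longest 3′ UTR. An 8mer was held by 565 genes (2.69%), and an 8mer together with a separate 7mer-m8, the makeup of Vat1, by 131 genes (0.623%). Within the first 1448 bases of the 7692 3′ UTRs at least as long as that of Vat1, 29 (0.377%) held that makeup. A match is a description of the sequence and not a measured site of binding.

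Vat1 was low in both HA-negative groups, higher in empty HA-positive nuclei and highest in g4 HA-positive nuclei. The scaling of CPM used TMM factors over all 28 libraries. In empty HA-negative nuclei, Vat1 stood at 14.5, 9.83, 6.16, 13.6, 20.4, 24.9 and 5.25 CPM from animal 17 to animal 23, a mean of 13.5 ± 7.24 (SD, n = 7). In g4 HA-negative nuclei of the same animals, in the same order, it stood at 5.81, 13.6, 16.0, 19.5, 12.7, 4.45 and 14.9 CPM, a mean of 12.4 ± 5.44 (SD, n = 7). The HA-negative groups overlapped over most of their ranges, and neither vector had the higher libraries throughout.

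In empty HA-positive nuclei, Vat1 was at 10.8, 16.9, 41.1, 24.4, 14.1, 41.1 and 42.2 CPM from animal 17 to animal 23, a mean of 27.2 ± 14.0 (SD, n = 7). Animals 19, 22 and 23 lay above every HA-negative library of the same vector, and the other 4 lay within their range. In g4 HA-positive nuclei, it was at 129, 152, 31.7, 118, 65.7, 70.6 and 51.5 CPM, a mean of 88.4 ± 44.8 (SD, n = 7). The lowest of these, in animal 19, was the library that held markers of other cells, and without it the mean was 97.9 ± 40.7 (SD, n = 6). Summed over 7 libraries, the counts of Vat1 were 53, 47, 76 and 307 in empty HA-negative, g4 HA-negative, empty HA-positive and g4 HA-positive nuclei.

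**Figure D2:**
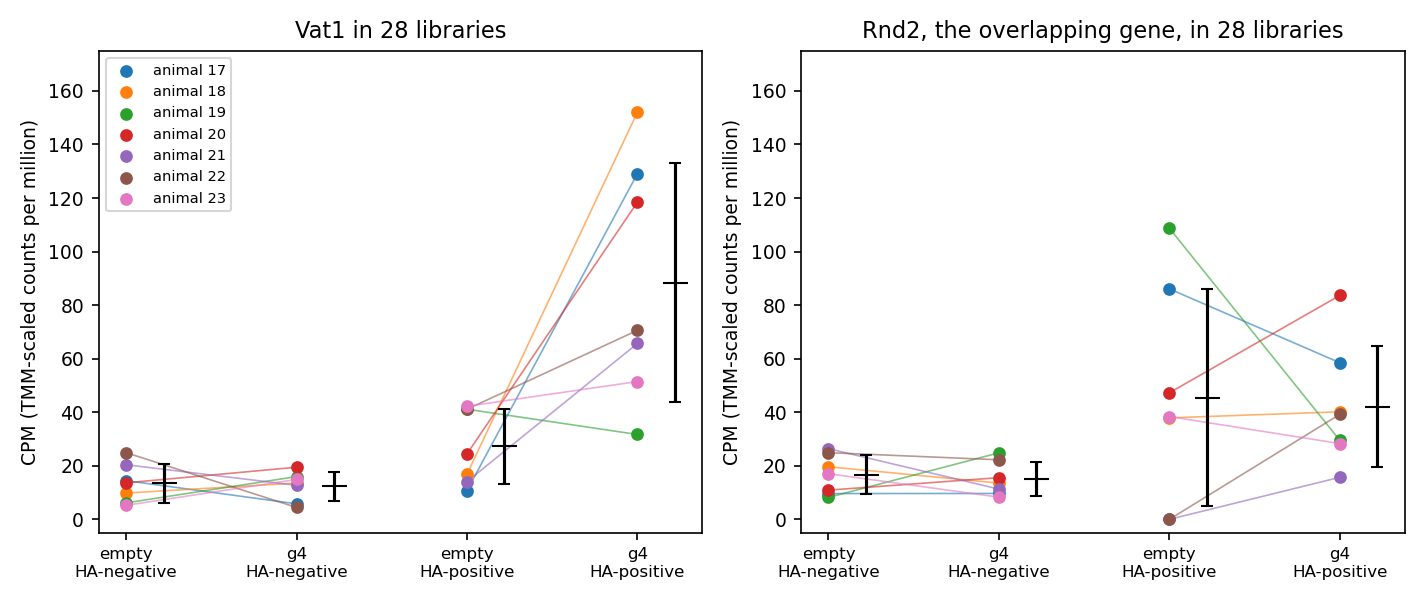
CPM of Vat1 (left) and of its overlapping neighbour Rnd2 (right) in each of 28 libraries by group, with points coloured by animal, lines joining the vectors within an animal and fraction, and black bars for the mean ± SD of 7 libraries. Vat1 in g4 HA-positive nuclei spans 31.7 to 152 CPM, and 6 of its 7 points lie above all empty HA-positive ones.

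In this order of levels, the HA-negative groups differed by less than the spread between animals. The step from the HA-negative to the HA-positive nuclei of the empty vector is tested next. The step from empty to g4 within HA-positive nuclei was the larger one.

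The empty vector gives the comparison of HA-positive with HA-negative nuclei in which no library had served to choose Vat1. Vat1 was higher in HA-positive nuclei in 5 of 7 animals, with folds of 1.65, 5.89, 1.74, 1.63 and 6.92 in animals 18, 19, 20, 22 and 23, computed after adding 1 CPM to each level. It was lower in animals 17 and 21, with folds of 0.760 and 0.706. The log2 difference fitted by edgeR was 0.95 ± 0.56 (SE), with an adjusted p of 0.359. An exact two-sided sign-flip permutation test over the 7 animals gave p = 0.109, where 0.0156 is the smallest value it can give. Neither test gave a p under 0.05, and the 95% interval of -0.15 to 2.05 on the log2 scale includes 0. The per-animal log2 differences had a mean of 0.95 and an SD of 1.29 (n = 7). Vat1 had too few counts for the filter on low counts in this comparison, so its value comes from a fit without the filter, in which 3.72% of 17753 genes were called. With the filter 7.01% of 5538 genes were called.

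With the g4 vector, Vat1 was higher in HA-positive nuclei in 7 of 7 animals, as were 4.23% of 6264 genes, and the lowest HA-positive library (31.7 CPM) lay above the highest HA-negative one (19.5 CPM). Such a gap was seen for 1.09% of them, and 6.4% were called at an adjusted p under 0.05 in edgeR. The folds per animal ran from 1.93 in animal 19 to 19.1 in animal 17, with a median of 5.83. The fitted log2 difference of 2.81 ± 0.36 (SE), a fold of 7.03, was the third largest positive one among the 6264 genes, and with the library of animal 19 left out it was 2.97 ± 0.34. Since these are the values that chose the gene, nothing is read from its rank or from the count of animals.

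The sorted fractions differed in markers of cell types as well as in the level of Vat1 with g4. Of the 10 inhibitory neuron markers, 9 could be tested with either vector. In HA-positive nuclei 9 of 9 were higher and 8 were called by edgeR, against 7.01% and 6.4% of all genes with empty and g4. Median log2 differences over the tested markers were 1.66 with empty and 1.67 with g4. Their summed level was 840 to 1194 CPM in empty HA-negative, 735 to 1201 in g4 HA-negative, 2517 to 3924 in empty HA-positive and 1689 to 3401 in g4 HA-positive nuclei. The 1689 CPM was the library of animal 19, and without it the lowest g4 HA-positive sum was 2118 CPM. Without that library 10 of 10 tested markers were higher and 9 were called. Oligodendrocyte markers went the other way, with 6 of 6 tested called lower in empty HA-positive nuclei. With g4, 0 of 7 tested were higher and 5 were called lower by edgeR, with a median log2 difference of -2.51 over the tested markers. With the library of animal 19 left out 8 of 8 were called lower, with a median of -4.19. Microglia markers were called lower in HA-positive nuclei for 5 of 5 tested with empty and 4 of 6 with g4. For striatal projection neuron markers these were 4 of 4 and 4 of 5. With the g4 library of animal 19 left out, 6 of 6 microglia markers and 5 of 5 striatal markers were called lower with g4. The striatal markers summed to 511 to 1337 CPM in empty HA-negative and 23.5 to 158 CPM in empty HA-positive nuclei. Of the 10 excitatory neuron markers, 1 was higher with empty and 3 with g4, and 2 were called lower with each vector. With RNA pooled over sorted nuclei, a change in which cells were sorted and a change in Vat1 per nucleus cannot be told apart.

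The comparison of g4 with empty in HA-positive nuclei asks how Vat1 differed between the vectors where Cas9 was present. It shares the g4 HA-positive libraries with the contrast that chose the gene. Vat1 was higher with g4 in 6 of 7 animals. The folds were 11.1 and 8.57 in animals 17 and 18, 4.69 and 4.42 in animals 20 and 21, 1.70 in animal 22 and 1.21 in animal 23. In animal 19, whose g4 library stood apart, Vat1 was lower with g4, at 31.7 against 41.1 CPM, a fold of 0.776. In 6 of 7 g4 libraries Vat1 lay above all 7 empty ones. At least 6 of 7 did so for 0.499% of the 5011 genes tested. These g4 libraries served to choose Vat1, so nothing is read from that share.

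The fitted log2 difference was 1.67 ± 0.38 (SE), a fold of 3.18, with a 95% interval of 0.92 to 2.41 on the log2 scale. The median over all 5011 genes was -0.01. Vat1 passed the filter on low counts only in the comparisons that hold the g4 HA-positive libraries, in which it is high, so that its being tested here also rests on them. The adjusted p in edgeR was 0.137, and Vat1 was not among the 3 genes called (0.0599% of those tested). Those were Lrrc58 (log2 difference 1.26 ± 0.21), the noncoding Oip5os1 (-0.89 ± 0.15) and Vamp1, a synaptic vesicle SNARE protein (-1.11 ± 0.20).

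The g4 HA-positive libraries served to choose Vat1, so its interval and p values in this comparison are a description. Nothing is read from them in support. Whether Vat1 passed the threshold turned on single libraries and on the fit. With that g4 library of animal 19 left out the log2 difference was 1.82 ± 0.37 with an adjusted p of 0.0296 in edgeR, and without the 4 libraries of under 10000 genes it was 1.37 with an adjusted p of 0.407. With the animal as a block it was 1.61 ± 0.44 with an adjusted p of 0.364, and in DESeq2 it was 1.67 with an adjusted p of 0.0161.

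**Figure D3:**
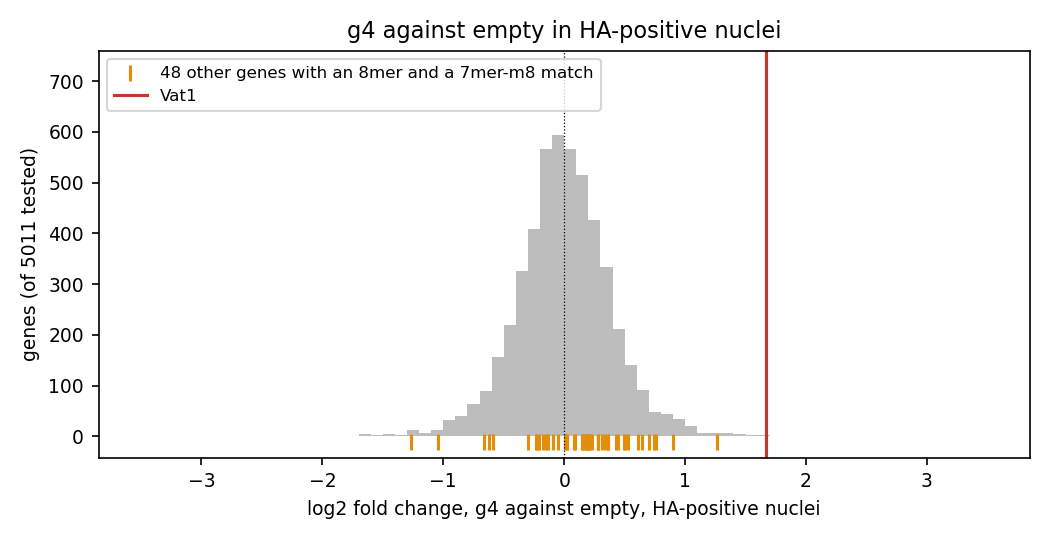
Histogram of the log2 fold change of g4 against empty in HA-positive nuclei over 5011 genes, with Vat1 as a red line and the 48 other tested genes that hold an 8mer and a 7mer-m8 match as orange ticks. Vat1 lies at 1.67, to the right of all 48 ticks, and the genes as a whole centre on -0.01. The place of Vat1 rests on g4 libraries that served to choose it.

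Cell type markers were compared between the same libraries, where edgeR called 0.0599% of all genes. Their part in the result for Vat1 was not tested beyond leaving out the library of animal 19. Of the 10 excitatory neuron markers, 9 could be tested and 8 were higher with g4, with a median log2 difference of 0.26. Of these 0 were called by edgeR and 2 had an unadjusted p under 0.05. Without the library of animal 19, 7 of 9 were higher. Of the 7 astrocyte markers, 5 could be tested, 5 of 5 had a log2 difference above 0 and 0 were called by edgeR, with 1 at an unadjusted p under 0.05. Their summed levels were 642 to 1334 CPM with empty and 915 to 2326 CPM with g4. For the 10 inhibitory neuron markers, 2 of 10 were higher with g4 and 0 were called by edgeR, against 3 at an unadjusted p under 0.05 and 1 called by DESeq2. Their summed levels were 2517 to 3924 CPM with empty and 1689 to 3401 with g4, or 2118 to 3401 without the library of animal 19. Of the 8 oligodendrocyte markers 2 could be tested, and 0 were called by edgeR, with 1 at an unadjusted p under 0.05. They summed to 42.4 to 111 CPM with empty and 101 to 1467 with g4, or to at most 218 without the library of animal 19.

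In HA-negative nuclei of the same animals, Vat1 differed little on average between the vectors. It was higher with g4 in 4 of 7 animals and lower in 3, with folds from 0.210 in animal 22 to 2.55 in animal 23. The fitted log2 difference was -0.13 ± 0.52 (SE), with an adjusted p of 0.984 in edgeR, and the 95% interval ran from -1.16 to 0.90. That interval includes 0. The value of Vat1 here too comes from a fit without the filter, over 18235 genes, of which 0% were called. Of the 6262 genes that passed the filter edgeR called 0, with 236 at an unadjusted p under 0.05, DESeq2 called 1 and voom 0. This comparison shares the g4 HA-negative libraries with the contrast that chose the gene.

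The difference between these vector effects was then fitted in 1 model over 28 libraries. The effect of g4 on Vat1 was larger in HA-positive than in HA-negative nuclei by 1.82 ± 0.58 (SE) on the log2 scale, and by 1.96 ± 0.57 with the g4 HA-positive library of animal 19 left out. In 5 of 7 animals the difference had this direction, and in animals 19 and 23 the opposite one. This difference contains all 14 libraries of the contrast that chose Vat1, so its value is a description. The adjusted p over 7197 genes was 0.797 in edgeR, and nothing is read from it in support. In that model 0% of genes were called by edgeR, with 359 at an unadjusted p under 0.05, and DESeq2 and voom called 0.

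**Figure D4:**
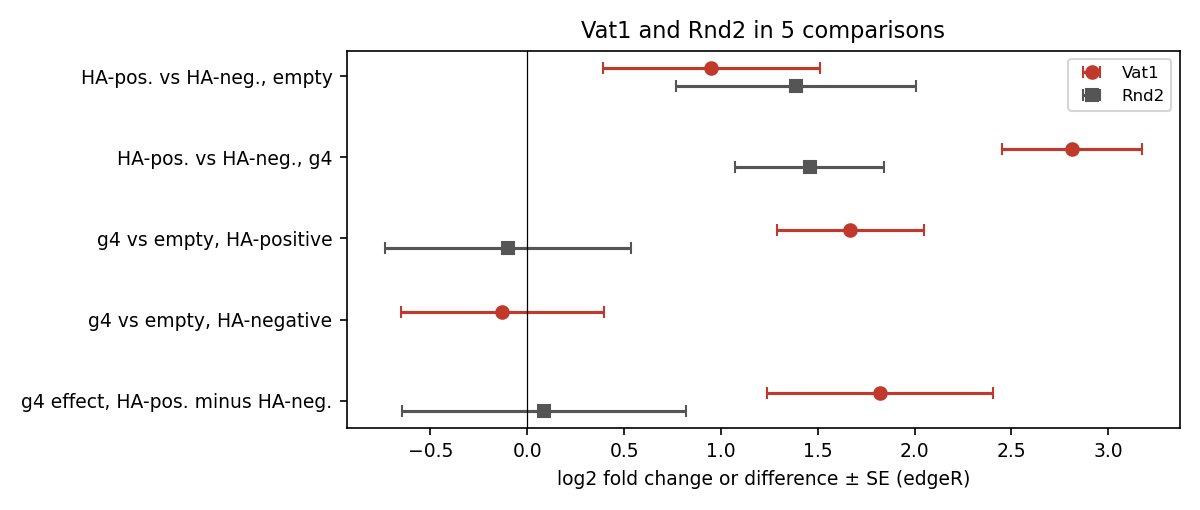
Log2 differences of Vat1 (red circles) and Rnd2 (grey squares) ± SE from edgeR in 5 comparisons; the lowest line is the difference between the vector effects of the fractions. Vat1 lies at 1.67 and Rnd2 at -0.10 for g4 against empty in HA-positive nuclei, and Rnd2 could not be tested in HA-negative nuclei.

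Rnd2, a small GTPase with a role in the migration of cortical neurons, is the only annotated gene that overlaps Vat1. It lies on the plus strand from 101464999 to 101471853 and shares 1232 bases with Vat1. Exons of 2 of its 3 transcripts overlap exon 1 of Vat1 over 226 bases, 8.17% of the exonic bases of Vat1. The strand setting of the counting is not given in the sources used here, so reads of the shared bases could not be assigned with certainty. The rest of the exonic bases of Vat1, the 3′ UTR among them, carried no annotated exon of Rnd2.

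Rnd2 showed no called difference between the vectors. In empty HA-positive nuclei it was at 86.1, 37.9, 109, 47.3, 0, 0 and 38.4 CPM from animal 17 to animal 23, and in g4 HA-positive nuclei at 58.5, 40.2, 29.5, 83.6, 15.7, 39.2 and 28.3 CPM. The groups overlapped, and the 2 libraries at 0 were among those with under 10000 genes. The log2 difference of g4 against empty was -0.10 ± 0.64 (SE), with an adjusted p of 0.986 in edgeR. In HA-positive against HA-negative nuclei, Rnd2 rose with g4 by 1.46 ± 0.38 (adjusted p 0.0152 in edgeR) and stood 1.39 ± 0.62 higher with empty (adjusted p 0.211 in edgeR). Across 28 libraries its log2 CPM correlated with that of Vat1 at r = 0.42, and at 0.15 once group means were subtracted.

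Of the other neighbours within 20 kb of Vat1, 3 were counted and the pseudogene Gm11625 was not analysed here. Ifi35, an interferon-induced gene that ends 46 bases beyond the 3′ end of Vat1 on the other strand, had at most 3 counts in any group and 0 in g4 HA-positive nuclei. The antisense gene Gm11626 had 0 counts in all 28 libraries. Rpl27, a protein of the large ribosomal subunit, averaged 27.1 ± 11.4 CPM in empty and 11.9 ± 8.08 CPM in g4 HA-negative nuclei, and 19.4 ± 15.3 CPM in empty and 14.0 ± 8.34 CPM in g4 HA-positive nuclei (SD, n = 7), and these groups overlapped.

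Relatives of Vat1 were mostly too low to test. Of 9 other quinone oxidoreductase-like genes, 1 or 2 passed the filter in each comparison and 0 were called by edgeR, DESeq2 or voom, with 0 at an unadjusted p under 0.05. Cryzl1, a quinone oxidoreductase-like enzyme, had a log2 difference of 0.04 ± 0.49 for g4 against empty in HA-positive nuclei. Its difference between HA-positive and HA-negative nuclei was 0.28 ± 0.48 with empty and 0.36 ± 0.36 with g4.

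Genes of mitochondrial fusion and fission, the process to which VAT1 has been linked, showed no called change. Of the 16 genes, 11 were tested for g4 against empty in HA-positive nuclei. Of these, 8 had a log2 difference above 0 and 0 were called by edgeR, DESeq2 or voom, with 1 at an unadjusted p under 0.05. Their median log2 difference was 0.22, against -0.01 over all 5011 genes. The mitofusins Mfn1 and Mfn2, which join outer membranes, had log2 differences of 0.48 ± 0.47 and 0.29 ± 0.26. Opa1, which joins inner membranes, had one of 0.12 ± 0.18, and Dnm1l, the dynamin-like protein of fission, one of -0.13 ± 0.17. In the other 4 comparisons 0 of these genes were called by any of those tools, and 0 to 2 had an unadjusted p under 0.05. With 11 to 13 of them tested, 0 calls lies near the shares of all genes called, which were 7.01% and 6.4% between the fractions with empty and g4, 0.0599% between the vectors in HA-positive nuclei and 0% in the other comparisons.

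The 130 other genes with an 8mer and a separate 7mer-m8 in the 3′ UTR were set beside Vat1 in each comparison. For g4 against empty in HA-positive nuclei 48 of them were tested, 34 (70.8%) were higher with g4 against 49.2% of all 5011 genes, and their median log2 difference was 0.19 against -0.01. Vat1, at 1.67, had the largest value among genes of this makeup, ahead of Lrrc58 (1.26), Cnep1r1 (0.90) and Rfx3 (0.76), and of these Lrrc58 was the only one called. Vat1 was chosen for its level in these g4 libraries and passed the filter through them, so nothing is read from its place. With the g4 library of animal 19 left out of the HA-positive nuclei, 35 of 51 were higher, with a median of 0.20. In HA-negative nuclei 49 of 70 were higher with g4, against 49.2% of all genes there, with a median of 0.07 and 0 called by edgeR.

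Between the fractions, genes of this makeup showed no common direction. In HA-positive against HA-negative nuclei, 26 of 55 (47.3%) were higher with empty and 32 of 64 (50.0%) with g4, against 50.9% and 50.6% of all genes. With either vector 3 were called, against 7.01% and 6.4% of all genes. With empty, Cdh7, a cadherin, rose by 1.75 ± 0.44, while Zbtb20, a zinc-finger transcription factor, fell by 1.62 ± 0.19 and Enpp4 fell by 1.49 ± 0.47. With g4, Lrrc58 rose by 1.29 ± 0.27, while Zbtb20 fell by 0.87 ± 0.24 and Nhsl2 fell by 0.91 ± 0.21. These values are log2 differences ± SE, called at an adjusted p under 0.05 in edgeR.

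The genes whose levels over the 28 libraries were most like those of Vat1 were found by Pearson's r of log2 CPM. Over 7196 other genes the median r was -0.02 and the 95th percentile 0.43. The 8 highest were Tcf4 (0.81), Lrrc58 (0.79), Oprd1 (0.78), Limch1 (0.77), Gria1, Ntrk2 and Kcnq3 (0.75 each) and Pam (0.74). Oprd1 is the delta opioid receptor, Gria1 an AMPA receptor subunit, Ntrk2 the receptor of BDNF, Kcnq3 a potassium channel subunit, Tcf4 a transcription factor and Pam an enzyme that amidates peptides. The points share library, depth and group, and the same libraries that chose Vat1 are among them. The same 8 genes were highest with that library of animal 19 left out, and 4 of them were among the 8 highest by Spearman's rank correlation. Once group means were subtracted, r was 0.42 for Tcf4, 0.41 for Lrrc58 and 0.61 for Limch1, and without that library of animal 19 it was 0.30, 0.25 and 0.64.

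The 8 genes had their highest group mean in g4 HA-positive nuclei, which their choice by likeness to Vat1 favours, but they differed in where the step lay. Tcf4 averaged 290 ± 45.5 CPM in empty HA-negative, 331 ± 36.7 in g4 HA-negative, 459 ± 85.9 in empty HA-positive and 602 ± 112 in g4 HA-positive nuclei (SD, n = 7). Lrrc58 averaged 106 ± 19.2, 122 ± 48.8, 125 ± 30.2 and 305 ± 87.9 CPM in the same groups (SD, n = 7). Tcf4 rose between the fractions with the empty vector (log2 difference 0.68 ± 0.14, adjusted p 0.00184 in edgeR), and Lrrc58 stood 0.26 ± 0.20 higher there (adjusted p 0.544 in edgeR). Both genes were picked by likeness to Vat1 over these same libraries, so these values are a description. Of the 8, Tcf4, Lrrc58, Limch1, Kcnq3 and Pam held at least 1 of the seed matches, and Oprd1, Gria1 and Ntrk2 held 0. Among all 21037 protein-coding genes with an annotated 3′ UTR the share with a match was 19.7%. The share among the 7196 genes compared here was not computed, so nothing is read from this count.

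**Figure D5:**
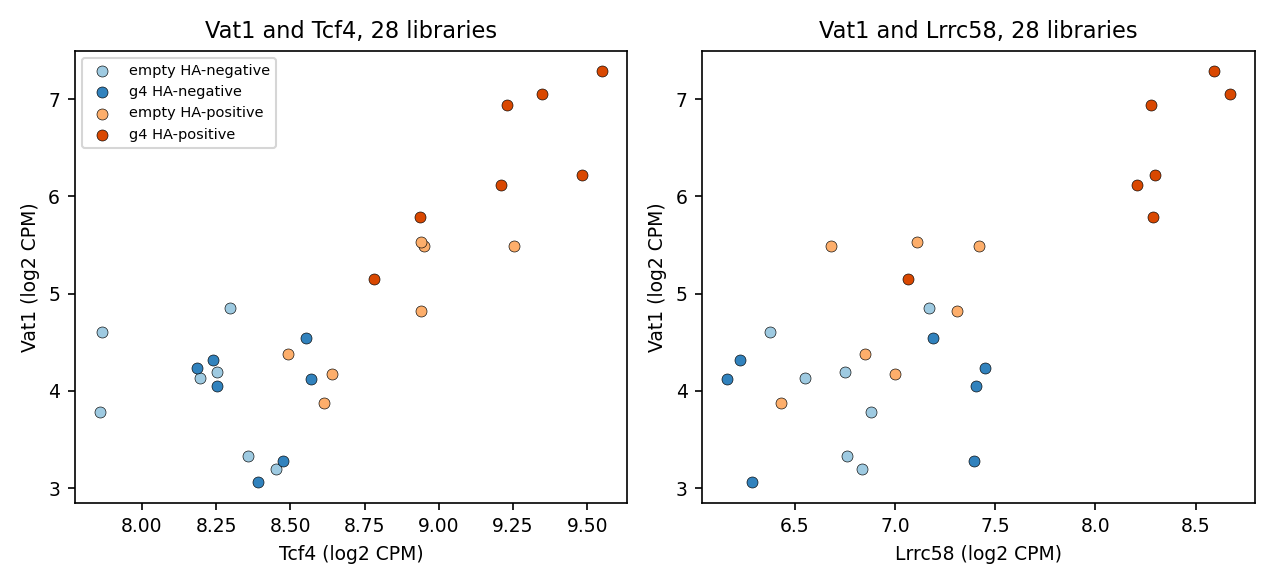
Log2 CPM of Vat1 against that of Tcf4 (left) and Lrrc58 (right) in 28 libraries coloured by group. The highest levels of Vat1 lie in g4 HA-positive libraries in both panels, and r over all 28 points was 0.81 and 0.79.

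After each group's mean was subtracted, other genes came first, with Drosha and Snx19 at 0.63, Gtf2f1 at 0.62 and Limch1 and Hdac11 at 0.61, where the 95th percentile was 0.34. Drosha encodes the nuclease that trims primary microRNA transcripts. Its mean level was 107 ± 24.6 CPM in empty and 91.5 ± 23.2 CPM in g4 HA-positive nuclei (SD, n = 7), a log2 difference of -0.23 ± 0.23 with an adjusted p of 0.904 in edgeR. Limch1 was the only gene in both sets. With the g4 HA-positive library of animal 19 left out, 3 of these 5 genes were still among the 5 highest, and Snx19 was at 0.56.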

How the data were processed

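Nuclear RNA of 28 libraries (7 mice, 2 vectors, 2 sorted fractions) was analysed. The authors deposited raw counts per gene, named so per the labels' protocols and descriptions, and every value was whole. The build was GRCm38, per the submitters' processing notes, while the sources used here give no aligner, counting program or strand setting. Of the 41550 entries, the 1 with no gene name was dropped, and blank cells were taken as a count of 0. Groups and animals came from the sample titles; for 3 animals the column name carried a number 1 higher, and the sample descriptions tied samples to columns.

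Counts were fitted with edgeR 4.0.16 in R 4.3.3 (filterByExpr, TMM, robust quasi-likelihood F test, tested on simulated data), adjusted by Benjamini-Hochberg over all tested genes, with a call at an adjusted p under 0.05. Each pairwise fit held the libraries of its own groups. Vat1 did not pass the filter in 2 comparisons, and its value there comes from the fit without a filter. Alternatives used DESeq2 1.42.0, voom of limma 3.58.1, RLE factors, other filters, ribosomal RNA left out, libraries left out and the animal as a block. The animal pairs the libraries, as the titles give; within a comparison the correlation of same-animal deviations had medians of 0.01 to 0.06.

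Named genes were Vat1, its neighbours within 20 kb, 2 lists (quinone oxidoreductase-like, mitochondrial fusion and fission), genes of the same seed-match makeup that were called or led, and the 8 and 5 genes most like Vat1 (log2 CPM with a prior count of 2). The gene and all lists were chosen with earlier results of these data known.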

Additional observations from a re-analysis of the deposited data

Results flagged for a closer look

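Among 22 quantities in 4 groups each (88 groups of 7 libraries), 10 groups held a library far from its neighbours by Dixon's criterion, which flags about 1 in 20 groups by chance. Vat1 had 0 such groups. The g4 HA-positive library of animal 19 gave 6 of the 10. It was lowest for Lrrc58 (130 CPM, next 291) and Ntrk2 (437 CPM, next 519). It was highest for the summed markers of oligodendrocytes (1467 CPM, next 218), oligodendrocyte precursors (105 CPM, next 29.99), microglia (343 CPM, next 41.8) and striatal projection neurons (297 CPM, next 90.1). Vat1 also had its lowest g4 HA-positive level there. In animal 21, the astrocyte markers stood out in g4 HA-positive nuclei (2326 CPM, next 1428). Oligodendrocyte precursor markers of animal 21 did so in g4 HA-negative (246 CPM, next 183) and empty HA-positive nuclei (67.7 CPM, next 25.1). Cryzl1, a relative of Vat1, stood out in the g4 HA-positive library of animal 18 (103 CPM, next 39.4).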

How the results depend on the processing

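Vat1 kept its direction and its side of the threshold under all 14 alternatives for HA-positive against HA-negative nuclei with empty (log2 difference 0.67 to 1.21, also the range with single animals left out), its direction under all 17 with g4 (2.58 to 3.04, likewise), and both under all 16 for the difference of the vector effects (1.44 to 2.27, likewise). For g4 against empty in HA-positive nuclei it ranged from 1.37 to 1.96 over 18 alternatives and passed the threshold in 5 of them: DESeq2 (1.67), no filter (1.70), leaving out the g4 HA-positive library of animal 19 (1.82), without animal 19 altogether (1.94) and, added after the data were seen, 1 model over all 28 libraries (1.68). Leaving out single animals gave 1.39 to 1.94. The g4 libraries of this comparison served to choose Vat1, so nothing is read from its calls in support. In HA-negative nuclei leaving out animals gave -0.35 to 0.24, with the sign turned without animal 21 (0.01) or 22 (0.24). With the replicate block, pairing by animal, Vat1 was at 0.94, 2.68, 1.61, -0.08 and 1.76 in the 5 comparisons in the order given in the text, and the block changed none of its calls, except that without animal 19 (1.96, adjusted p 0.202 in edgeR, added after the data were seen) it ended the call. The filter of at least 10 counts in 7 libraries gave no value for Vat1 with empty between fractions or in HA-negative nuclei. Counts of called genes moved by over 1.5 times as follows. With empty between fractions they went from 388 to 661 with no filter, 251 without animal 19 and 612 in the model over 28 libraries; with g4 from 401 to 218, 224 and 241 without animals 20, 21 and 22. For g4 against empty in HA-positive nuclei they went from 3 to 11 (DESeq2), 28 (no filter), 1 (replicate block), 1 (without animal 18), 5 (without the g4 library of animal 19), 0 (without libraries under 10000 genes) and 8 (28 libraries). In HA-negative nuclei they went from 0 to 1 (DESeq2), and for the difference of effects from 0 to 3 (no filter). The causes were not tested. Depth limits Vat1 in HA-negative and in empty HA-positive nuclei, where a library held 3 to 17 and 3 to 20 counts.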
